A study of Mus musculus with 24 samples.

Results

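The response to neuregulin 1 (NRG1) was set against itself in a pair of epithelial populations of the mouse small-intestinal crypt: the change under NRG1 in Lgr5med cells, which the labels name immediate progenitors, minus the change in Lgr5neg cells, which they name differentiated cells. For each gene the quantity tested was a difference of differences on the log2 scale, with each mouse as its own block, so a positive value means that the change in Lgr5med cells lay above that in Lgr5neg cells. The comparison used 12 of the 24 libraries of the series, 3 in each of 4 groups. In order these are Lgr5med from NRG1 mice, Lgr5med from PBS mice, Lgr5neg from NRG1 mice and Lgr5neg from PBS mice. All 6 mice were male C57BL/6 mice, called littermates in the labels although they were of 2 ages, that carry the Lgr5-EGFP reporter, in which the stem cell gene Lgr5 drives green fluorescent protein. Of them 3 received 7.5 µg of NRG1 into the abdominal cavity every 12 h over 5 days and 3 received the vehicle, phosphate-buffered saline (PBS). Tissue was collected on day 6. In either treatment the mice numbered 1 and 2 were aged 15 weeks and the mouse numbered 3 was aged 11 weeks. Every mouse gave 1 library per population, since description labels of its libraries begin alike. Crypt cells negative for the leukocyte marker CD45, the endothelial marker CD31 and the dead-cell dye propidium iodide were sorted into Lgr5med-CD24low and Lgr5neg-CD24neg gates. The villi had been scraped off before the crypts were released, so the Lgr5neg gate holds cells that stayed with the crypt preparation.

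NRG1 is a growth factor of the epidermal growth factor family that binds the receptors ErbB3 and ErbB4, which signal in pairs with ErbB2 or the epidermal growth factor receptor, mainly through the ERK and PI3 kinase pathways. In the crypt, stem cells at the base give rise to progenitors that divide rapidly, leave the zone of Wnt signalling as they move up and become absorptive enterocytes or secretory cells such as goblet, Paneth and enteroendocrine cells. Progenitors therefore carry the programmes of cell division, and differentiated cells those of digestion, absorption and detoxification.

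The 12 libraries held between 16980822 and 23240804 counts. Mitochondrial ribosomal RNA took 37.6% to 62.4% of them, and other genes had 8485205 to 12549810 counts. At 0 counts a library still allows up to 3 counts, or 0.112 to 0.247 CPM (counts scaled to library size), by counting error alone. Markers followed the gates: summed crypt base stem cell markers lay between 3802 and 7494 CPM in the Lgr5med libraries and between 256 and 379 CPM in the Lgr5neg libraries, and summed brush border genes between 1342 and 2291 CPM against 24009 and 35353 CPM. Among immune markers, Lgr5neg NRG1 replicate 2 stood apart with 524.9 CPM, against 79.7 to 255.6 CPM in the other Lgr5neg libraries and 12.7 to 29.9 CPM in Lgr5med libraries. Lgr5med PBS replicate 1 held 6558 CPM of stem cell markers and 6168 CPM of goblet markers, against 3802 and 3951 CPM, and 17043 and 14783 CPM, in PBS replicates 3 and 2. Counts of the mitochondrial ribosomal RNA mt-Rnr1 per 100 of mt-Rnr2 were 38.0 to 51.3 in NRG1 and 18.5 to 20.5 in PBS libraries of Lgr5med cells, and 40.8 to 43.5 in NRG1 and 20.2 to 24.5 in PBS libraries of Lgr5neg cells. The part of this ratio in the results was not tested.

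The question was which genes answer NRG1 differently in progenitors and in differentiated cells. Of 14134 genes tested, 10 differed in their response (0.0708% of genes; edgeR quasi-likelihood test, adjusted p under 0.05). In 3 of them (0.0212%) the difference was positive (Axin2, Clic4 and Sema7a), and in 7 (0.0495%) it was negative (Car4, Ces1f, Apol10a, E2f2, Fam101b, Mall and Sult1b1). At an unadjusted p under 0.05 there were 1060 genes (7.50%), 351 positive (2.48%) and 709 negative (5.02%), and DESeq2 called 63 genes (0.446%), all 10 among them. The median difference over all genes was -0.05. The median standard error over the 11188 genes tested in all fits was 0.27 for the difference of responses, against 0.17 for the response in Lgr5med and 0.23 for that in Lgr5neg cells. Differences between bulk populations can come from fewer cells of a type or from less RNA per cell, which cannot be told apart here.

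The calls depended on single mice. Without 1 mouse the count was 1 (PBS replicate 3), 3 (NRG1 replicate 3), 4 (PBS replicate 2), 5 (NRG1 replicate 1), 12 (NRG1 replicate 2) and 24 (PBS replicate 1). Of the 10 genes, Car4 alone was still called without PBS replicate 3 (the others at adjusted p-values of 0.11 to 0.35). Car4, Axin2 and Sema7a were called without NRG1 replicate 3 (the others at 0.078 to 0.28), and Car4 and E2f2 without PBS replicate 2 (the others at 0.056 to 0.18). Without NRG1 replicate 1 the calls of Ces1f, Apol10a, Sult1b1, Clic4 and Sema7a ended (0.061 to 0.094). Sema7a was the single call that ended without NRG1 replicate 2 (0.092), whose Lgr5neg library had the high immune markers. It was also the single call to end without PBS replicate 1 (0.059), whose Lgr5med library had the lowest goblet markers among Lgr5med PBS libraries. With the 15-week-old mice alone no gene was called. All these fits had fewer mice and residual degrees of freedom than the main fit, so a lost call alone does not show a smaller difference. Over the 6 fits that each left out a mouse, no difference of the 10 genes changed sign. Within the 15-week-old and the 11-week-old mice (1 per treatment) taken separately all 10 kept their sign. Within-mouse differences did not overlap between NRG1 and PBS mice for any of the 10 genes, so kept signs add no separate support. The differences within age were 1.55 to 2.24 in 15-week-old and 0.83 to 1.45 in 11-week-old mice for the 3 positive genes, and -1.77 to -1.05 and -2.85 to -1.27 for the 7 negative ones. Without mitochondrial ribosomal RNA the count was again 10, with all of the same genes.

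Carbonic anhydrase 4, Car4, showed the largest difference among the 10 genes. It is a membrane-anchored enzyme on the apical surface of enterocytes that interconverts carbon dioxide and bicarbonate, and lies on GRCm38 chromosome 11, 84957786 to 84966044. In Lgr5med cells Car4 stood at 3.95, 2.94 and 2.08 CPM in NRG1 mice, against 13.2, 17.2 and 19.4 CPM in PBS mice. Among Lgr5neg libraries it stood at 99.2, 93.3 and 88.8 CPM in NRG1 mice, against 109.8, 139 and 108 CPM in PBS mice. The NRG1 values lay below all PBS values in both populations, by a wide margin in the progenitors and a narrow one in the differentiated cells. Car4 fell 5.48-fold in Lgr5med cells (log2 change -2.45, SE 0.24, adjusted p = 7.1e-05), while in Lgr5neg cells its log2 change was -0.34 (SE 0.16, adjusted p = 0.48). The difference of -2.15 (SE 0.23, 95% interval -2.64 to -1.66, adjusted p = 0.0021) was called without each of the 6 mice in turn and was not called with all 24 libraries in the fit (0.13).

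A pair of detoxification enzymes, Ces1f and Sult1b1, fell in the progenitors. Ces1f, a carboxylesterase that splits esters of drugs and lipids (chromosome 8, 93256236 to 93279747), had 4.96, 4.88 and 2.68 CPM in Lgr5med cells of NRG1 mice, against 10.8, 13.7 and 17.1 CPM in those of PBS mice. Its Lgr5neg values were 163, 118 and 78.2 CPM in NRG1 mice, against 146, 100.0 and 103 CPM in PBS mice. The groups were apart in Lgr5med cells and overlapped in Lgr5neg cells. Ces1f fell 3.27-fold in Lgr5med cells (log2 change -1.71, SE 0.25, adjusted p = 0.0014), with a log2 change of 0.06 (SE 0.25, adjusted p = 0.96) in Lgr5neg cells and a difference of -1.77 (SE 0.27, adjusted p = 0.030).

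Sult1b1, a cytosolic sulfotransferase that conjugates phenols and thyroid hormone (chromosome 5, 87513339 to 87538195), stood at 15.4, 16.6 and 17.2 CPM in Lgr5med cells of NRG1 mice, against 37.7, 34.0 and 47.4 CPM in those of PBS mice. In Lgr5neg cells it was at 469, 397 and 544.5 CPM in NRG1 mice, against 596, 373 and 493 CPM in PBS mice. Again the groups were apart in Lgr5med cells and overlapped in Lgr5neg cells. Sult1b1 fell 2.38-fold in Lgr5med cells (log2 change -1.25, SE 0.15, adjusted p = 0.00025), against a log2 change of -0.04 (SE 0.20, adjusted p = 0.96) in Lgr5neg cells. The difference was -1.23 (SE 0.20, adjusted p = 0.039). Ces1f has closely related copies in its gene cluster, between which the counting could split reads.

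Promoter sequences are shown for Sult1b1 and E2f2. Among the 11 RefSeq promoters that matched 9 of the 10 genes (250 bases before to 50 after a start, GRCm38.p6), these held the hepatocyte nuclear factor 4 and the E2F motif searched. The window at a RefSeq start inside the Sult1b1 gene (chr5:87536173-87536472, minus strand) carried the motif CAAAGTCCA of hepatocyte nuclear factor 4, a nuclear receptor of the enterocyte programme, in capitals:
Sult1b1: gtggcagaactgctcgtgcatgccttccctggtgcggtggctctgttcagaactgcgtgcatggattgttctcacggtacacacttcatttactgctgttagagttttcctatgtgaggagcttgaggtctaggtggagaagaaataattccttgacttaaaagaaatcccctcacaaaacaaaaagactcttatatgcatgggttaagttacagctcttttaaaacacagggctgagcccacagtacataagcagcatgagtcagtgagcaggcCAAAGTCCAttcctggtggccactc
Searched on both strands, that motif was in 0.475% of the 32851 promoters of the table, so the match describes the letters of this window and not a bound site. CTTTGA, the core recognised by the Wnt effectors TCF and LEF, was in the Mall window and in the other Sult1b1 window, as in 16% of all promoters. No motif overlapped another in these windows.

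E2f2 encodes a transcription factor of the E2F family, which switches on genes for DNA replication and is held in check by the retinoblastoma protein (chromosome 4, 136172394 to 136196057). Lgr5med cells had 20.7, 29.6 and 28.8 CPM in NRG1 mice, against 77.1, 95.4 and 83.5 CPM in PBS mice. Lgr5neg cells had 41.9, 71.0 and 66.9 CPM in NRG1 mice, against 75.2, 97.7 and 52.6 CPM in PBS mice. The NRG1 and PBS values did not overlap in Lgr5med cells and did in Lgr5neg cells. E2f2 fell 3.19-fold in Lgr5med cells (log2 change -1.67, SE 0.15, adjusted p = 5.6e-05) and had a log2 change of -0.32 (SE 0.25, adjusted p = 0.71) in Lgr5neg cells. The difference was -1.39 (SE 0.20, adjusted p = 0.017). In PBS replicates 1 and 2 E2f2 was about as abundant in Lgr5med as in Lgr5neg cells (log2 differences 0.03 and -0.06). In PBS replicate 3 it was more abundant in Lgr5med cells (0.64). Within each NRG1 mouse Lgr5med cells held less, at -1.05, -1.29 and -1.21. The promoter of E2f2 (chr4:136172024-136172323, plus strand) carried the E2F motif TTTGGCGC, in capitals, near its downstream end:
E2f2: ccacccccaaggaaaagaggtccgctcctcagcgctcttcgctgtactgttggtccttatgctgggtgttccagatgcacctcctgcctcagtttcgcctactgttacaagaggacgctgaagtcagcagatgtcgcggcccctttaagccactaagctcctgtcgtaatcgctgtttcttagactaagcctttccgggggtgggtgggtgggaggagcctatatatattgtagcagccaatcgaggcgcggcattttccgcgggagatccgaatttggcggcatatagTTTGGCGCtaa
Searched on both strands, that motif was in 0.514% of all promoters. TTTCCCGC and TTTCGCGC, the other E2F spellings searched, were in 1.07% and 0.323% of promoters and in none of the 11 windows.

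Fam101b, named Rflnb in the annotation, encodes refilin B, a protein that binds filamin and organises actin filaments (chromosome 11, 76019194 to 76027782). It stood at 20.7, 22.5 and 22.5 CPM in Lgr5med cells of NRG1 mice, against 52.9, 38.5 and 47.9 CPM in those of PBS mice. Among Lgr5neg libraries it stood at 42.1, 62.4 and 52.4 CPM in NRG1 mice, against 46.9, 36.5 and 45.3 CPM in PBS mice. The treatments were apart in Lgr5med cells and overlapped in Lgr5neg cells. The populations were level within each PBS mouse (log2 differences 0.16, 0.05 and 0.06) and apart within each NRG1 mouse (-1.06, -1.50 and -1.21). Fam101b fell 2.09-fold in Lgr5med cells (log2 change -1.06, SE 0.14, adjusted p = 0.0006), against a log2 change of 0.30 (SE 0.18, adjusted p = 0.60) in Lgr5neg cells, for a difference of -1.35 (SE 0.19, adjusted p = 0.015).

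Mall, a MAL-like proteolipid of membrane rafts (chromosome 2, 127704386 to 127729932), was at 13.3, 13.0 and 16.0 CPM in Lgr5med cells of NRG1 mice, against 39.5, 34.4 and 42.8 CPM in those of PBS mice. Its Lgr5neg levels were 379, 386 and 559 CPM in NRG1 mice, against 585, 445.5 and 516 CPM in PBS mice. Only the Lgr5med groups were free of overlap for Mall. It fell 2.72-fold there (log2 change -1.45, SE 0.14, adjusted p = 7.1e-05), with -0.22 (SE 0.19, adjusted p = 0.75) in Lgr5neg cells and a difference of -1.23 (SE 0.18, adjusted p = 0.016). Apol10a, of the apolipoprotein L family (chromosome 15, 77477047 to 77491069), was at 2.20, 3.43 and 2.77 CPM in Lgr5med cells of NRG1 mice, against 8.28, 9.62 and 11.6 CPM in those of PBS mice. In Lgr5neg cells it was at 152, 145 and 153 CPM in NRG1 mice, against 185, 213 and 191 CPM in PBS mice. Both populations were free of overlap for Apol10a, with a wider gap in Lgr5med cells. Apol10a fell 3.45-fold in Lgr5med cells (log2 change -1.78, SE 0.23, adjusted p = 0.0006), with -0.38 (SE 0.15, adjusted p = 0.37) in Lgr5neg cells, called there with the replicate block (0.028), and a difference of -1.42 (SE 0.22, adjusted p = 0.024). Apol10a has closely related neighbours, between which the counting could split reads.

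Car4, Ces1f, Apol10a, Mall and Sult1b1 were each more abundant in every Lgr5neg than in every Lgr5med library, so their lower values in NRG1 progenitors widened a gap that PBS mice already had. Summed brush border genes in Lgr5med cells were at 1342 to 1732 CPM in NRG1 and 1880 to 2291 CPM in PBS mice, and in Lgr5neg cells at 24009 to 33634 and 29134 to 35353 CPM. Their part in these differences was not tested.

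The 3 genes with a positive difference were more abundant in every Lgr5med than in every Lgr5neg library and had negative changes in the differentiated cells. Axin2 is the scaffold of the complex that destroys beta-catenin and a feedback target of Wnt signalling (chromosome 11, 108920349 to 108950783). In Lgr5med cells it stood at 172, 147 and 114 CPM in NRG1 mice, against 159, 98.2 and 110.2 CPM in PBS mice. Among Lgr5neg libraries it stood at 14.7, 15.3 and 18.1 CPM in NRG1 mice, against 46.5, 40.8 and 40.1 CPM in PBS mice. The groups overlapped in the progenitors and were far apart in the differentiated cells. Axin2 fell 2.64-fold in Lgr5neg cells (log2 change -1.40, SE 0.16, adjusted p = 0.0099) and had a log2 change of 0.26 (SE 0.19, adjusted p = 0.45) in Lgr5med cells, for a difference of 1.65 (SE 0.22, 95% interval 1.17 to 2.13, adjusted p = 0.015). The fall in Lgr5neg cells was not called without PBS replicate 1 (adjusted p = 0.082) or PBS replicate 3 (0.059). An antisense gene, Gm11670, overlaps Axin2, and as the strand setting of the counting is not given in the sources used here, reads of the pair cannot be told apart.

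Clic4, of the chloride intracellular channel family (chromosome 4, 135213969 to 135272814), was at 46.2, 45.9 and 47.8 CPM in Lgr5med cells of NRG1 mice, against 38.5, 36.0 and 33.3 CPM in those of PBS mice. In Lgr5neg cells it was at 3.94, 4.47 and 5.36 CPM in NRG1 mice, against 9.58, 10.9 and 10.1 CPM in PBS mice. Neither population overlapped between treatments for Clic4, and the directions were opposite. The rise in Lgr5med cells was called (log2 change 0.39, SE 0.12, adjusted p = 0.047). That call ended without each of the 6 mice in turn (0.056 to 0.21), with no filter on low counts (0.063) and with all 12 libraries in 1 model (0.15). In Lgr5neg cells the log2 change was -1.14 (SE 0.25, adjusted p = 0.079), which was called with the replicate block (0.0029), by DESeq2 (0.0072), with no filter on low counts (0.014) and with all 12 libraries in 1 model (0.0036). The difference was 1.53 (SE 0.22, adjusted p = 0.016).

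Sema7a, a membrane-anchored semaphorin that signals through integrins and plexins (chromosome 9, 57940112 to 57962865), had 46.6, 54.5 and 50.9 CPM in Lgr5med cells of NRG1 mice, against 38.8, 17.7 and 26.1 CPM in those of PBS mice. Lgr5neg cells had 2.96, 4.34 and 6.72 CPM in NRG1 mice, against 12.4, 6.68 and 6.01 CPM in PBS mice. The groups were apart in Lgr5med cells and overlapped in Lgr5neg cells. The log2 changes were 0.90 (SE 0.25, adjusted p = 0.055) in Lgr5med and -0.83 (SE 0.35, adjusted p = 0.42) in Lgr5neg cells, and neither was called. The Lgr5med change was called with the replicate block (0.014), by DESeq2 (0.0011), with no filter on low counts (7.3e-08), without mitochondrial ribosomal RNA (0.048) and without PBS replicate 1 (0.0014). Their difference of 1.76 (SE 0.28, adjusted p = 0.033) was called.

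**Figure D1:**
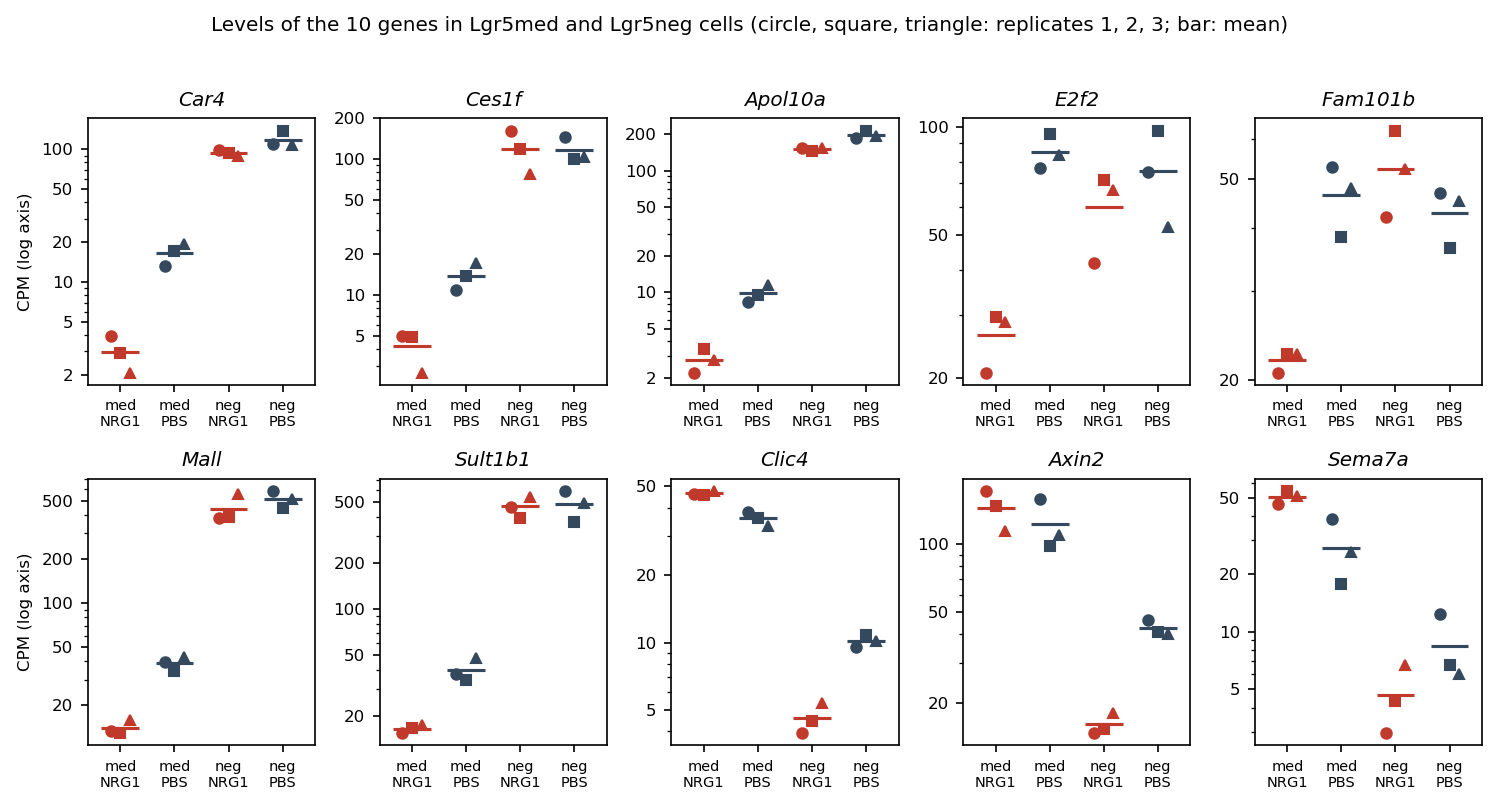
Levels of the 10 genes in each of the 12 libraries, in CPM on a log axis, with 1 point per library, a bar at each group mean, and NRG1 left of PBS within Lgr5med and Lgr5neg cells. Car4 in Lgr5med cells sits between 2.08 and 3.95 CPM in NRG1 mice and between 13.2 and 19.4 CPM in PBS mice, and Axin2 in Lgr5neg cells between 14.7 and 18.1 CPM in NRG1 mice and between 40.1 and 46.5 CPM in PBS mice.

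**Figure D2:**
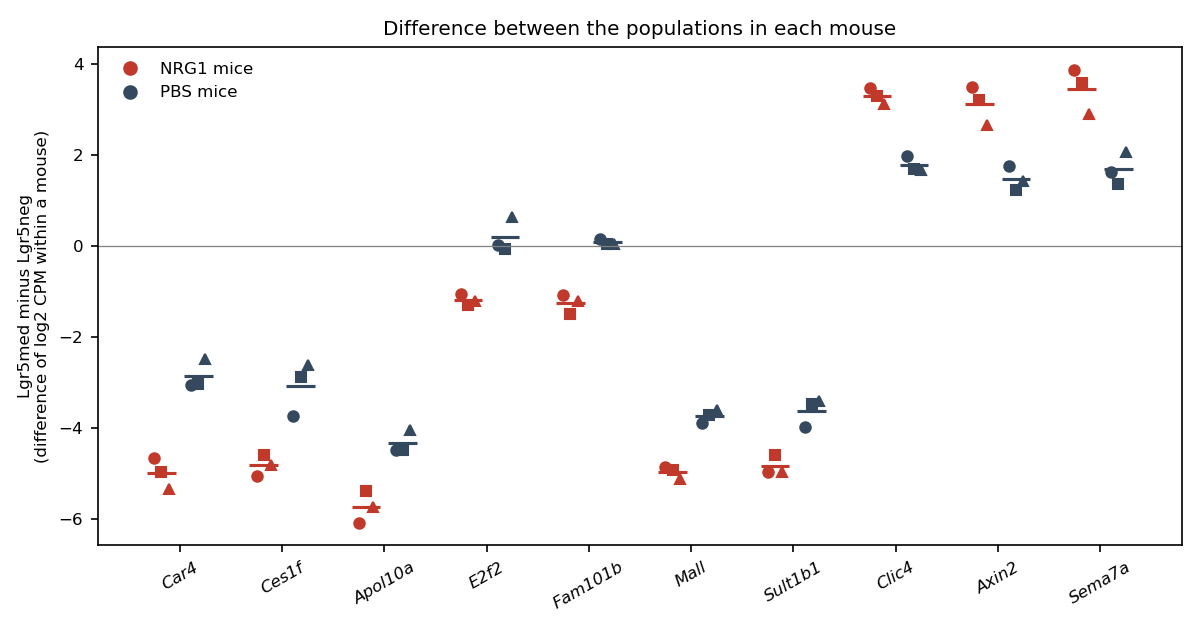
The log2 difference between Lgr5med and Lgr5neg cells within each mouse for the 10 genes, with 1 point per mouse (circle, square and triangle for replicates 1, 2 and 3), a bar at each mean, and NRG1 mice left of PBS mice. For Fam101b the 3 PBS mice lie between 0.05 and 0.16 and the 3 NRG1 mice between -1.50 and -1.06, and for each of the 10 genes the NRG1 and PBS mice do not overlap.

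Within-mouse differences between the populations were free of overlap between NRG1 and PBS mice for all 10 genes, as the plot by mouse shows, and for 1916 of all genes tested (13.6%). By the separate tests of each population, which called 9.55% of genes in Lgr5med and 0.328% in Lgr5neg cells, 8 of the 10 genes were called in Lgr5med cells and not in Lgr5neg cells, 1 (Axin2) in Lgr5neg and not in Lgr5med cells, and 1 (Sema7a) in neither. With the replicate block 7 were called in Lgr5med alone, 1 (Axin2) in Lgr5neg alone and 2 (Clic4 and Apol10a) in both, so the split depends on the fit. The fitted change was larger in Lgr5med cells for 8 genes and larger in Lgr5neg cells for 2 (Axin2 and Clic4). The signs of the changes in the populations were opposite for 5 genes.

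To place the difference along the sort, the response of Lgr5med cells was also set against those of the neighbouring populations, Lgr5low cells (subsequent progenitors by their label) and Lgr5high cells (CBC stem cells by their label), 12 libraries each, in the same kind of fit. These comparisons share the Lgr5med libraries. They called 0.00704% and 0.00705% of genes. None of the 10 genes was called in either, with adjusted p-values from 0.12 to 0.99 against Lgr5low and from 0.26 to 0.94 against Lgr5high cells. Axin2 had log2 changes of 0.01, 0.26, 0.33 and -1.40 from Lgr5high through Lgr5med and Lgr5low to Lgr5neg cells. Clic4 had 0.32, 0.39, 0.31 and -1.14, and Sema7a 0.51, 0.90, 0.92 and -0.83. For these 3 genes the changes in the 3 populations with Lgr5 reporter signal lay together and that in Lgr5neg cells lay apart. The differences from Lgr5low cells had 95% intervals of -0.44 to 0.32 for Axin2, -0.27 to 0.40 for Clic4 and -0.38 to 0.44 for Sema7a. Car4 changed by -1.55, -2.45, -1.46 and -0.34 in the same order, E2f2 by -1.19, -1.67, -0.78 and -0.32, and Sult1b1 by -1.16, -1.25, -0.86 and -0.04. For these the Lgr5neg value was the nearest to 0, with Lgr5low values between those of Lgr5med and Lgr5neg cells.

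**Figure D3:**
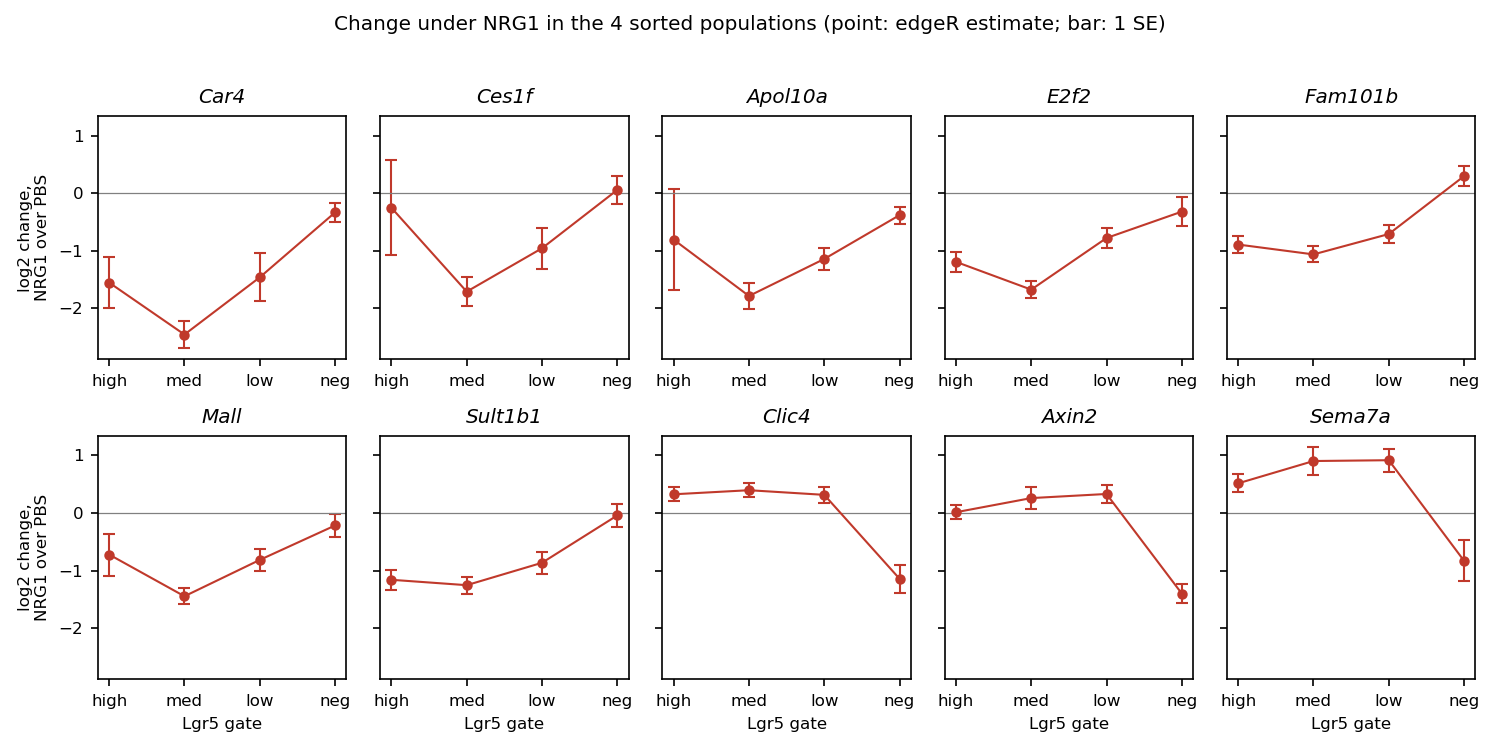
The log2 change under NRG1 of the 10 genes in Lgr5high, Lgr5med, Lgr5low and Lgr5neg cells, each point a fitted change over 3 NRG1 and 3 PBS libraries with a bar of 1 SE and lines joining the gates from high to negative reporter signal. Axin2, Clic4 and Sema7a lie between 0.01 and 0.92 in the populations with reporter signal and between -1.40 and -0.83 in Lgr5neg cells.

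Against Lgr5low cells 1 gene of 14210 was called (0.00704%; 954 or 6.71% at an unadjusted p under 0.05, 19 by DESeq2). It was Cck, which encodes the gut hormone cholecystokinin, with a difference of -1.13 (adjusted p = 0.045). Cck stood at 5.74, 13.7 and 26.1 CPM in Lgr5med cells of NRG1 mice, against 15.0, 58.5 and 53.9 CPM in those of PBS mice, and at 33.5, 61.1 and 107 CPM in Lgr5low cells of NRG1 mice, against 43.0, 110.2 and 100.4 CPM in those of PBS mice. The groups overlapped in both populations, and the difference shows within mice. Against Lgr5high cells 1 gene of 14179 was called (0.00705%; 1548 or 10.9% unadjusted, 77 by DESeq2). It was Smim24, a small integral membrane protein, with a difference of -1.12 (adjusted p = 0.0069), at 85.7, 98.5 and 94.9 CPM in Lgr5med cells of NRG1 mice, against 233, 223 and 279 CPM in those of PBS mice, and at 69.1, 80.8 and 77.9 CPM in Lgr5high cells of NRG1 mice, against 102.7, 89.4 and 83.3 CPM in those of PBS mice. The Cck call ended without NRG1 replicates 1 (0.18) or 3 (0.18) or PBS replicates 2 (0.18) or 3 (0.14), and the Smim24 call without NRG1 replicate 2 (0.092) or PBS replicate 3 (0.056).

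The responses of the populations taken singly differed in how many genes passed. In Lgr5med cells 1279 of 13394 genes changed (9.55%), 504 up (3.76%) and 775 down (5.79%). In Lgr5neg cells 39 of 11908 changed (0.328%), 18 up (0.151%) and 21 down (0.176%), with 1257 (10.6%) at an unadjusted p under 0.05 and 197 by DESeq2. With the replicate number as a block the counts were 2333 and 839. Leaving out 1 mouse brought the Lgr5med count to between 422 and 572 without NRG1 replicate 2, PBS replicate 2 or PBS replicate 3, and the Lgr5neg count to 90, 12 and 15 without NRG1 replicates 1, 2 and 3 and to 0, 4 and 0 without PBS replicates 1, 2 and 3. Of the 504 genes that rose in Lgr5med cells, 474 were tested in Lgr5neg cells, where 438 had a positive change (92.4%, against 51.7% of all genes), with a median log2 change of 0.63 in Lgr5med and 0.36 in Lgr5neg cells. Of the 775 that fell, 671 of 753 had a negative change in Lgr5neg cells (89.1%, against 48.3% of all genes), with medians of -0.70 and -0.35. The populations came from the same mice and the genes were picked on the Lgr5med side, so these shares and medians describe the genes and test nothing. The difference of responses was called for 8 of these 1279 genes, and for 10 of all 14134 genes tested for it (0.0708%). The Lgr5med change is a part of that difference, so this count too describes the genes and tests nothing.

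**Figure D4:**
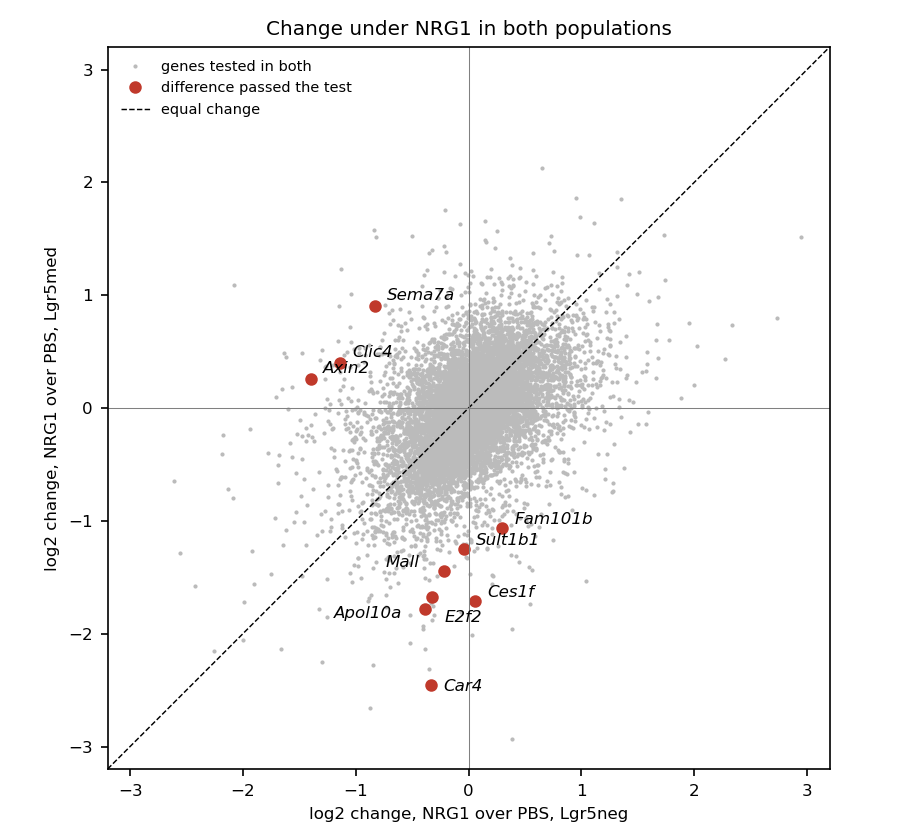
The log2 change under NRG1 in Lgr5med cells (vertical axis) against that in Lgr5neg cells (horizontal axis) for the 11382 genes tested in both, with the 10 genes whose responses differed marked by name. Car4, E2f2 and Fam101b lie below the line of equal change, and Axin2, Clic4 and Sema7a above it on the side of a fall in Lgr5neg cells.

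The receptors of NRG1 were looked at first among the gene groups. Erbb3, which encodes the receptor that binds NRG1, stood at 202, 209 and 196 CPM in Lgr5med cells of NRG1 mice, against 141.5, 120.5 and 129.7 CPM in those of PBS mice. Among Lgr5neg libraries it stood at 569.9, 555 and 623 CPM in NRG1 mice, against 346, 363 and 421.5 CPM in PBS mice. NRG1 values lay above all PBS values in both populations. The log2 changes were 0.65 (SE 0.12, adjusted p = 0.0046) in Lgr5med and 0.63 (SE 0.17, adjusted p = 0.16) in Lgr5neg cells, and the difference had a 95% interval of -0.41 to 0.40. Erbb2, the partner receptor, had a difference of -0.27 (SE 0.17, adjusted p = 0.80), and Egfr, the epidermal growth factor receptor, 0.48 (SE 0.18, adjusted p = 0.535). Of 13 ErbB receptors and ligands tested, 0 were called by edgeR or DESeq2 and 1 (Egfr) had an unadjusted p under 0.05, against 7.50% of all genes. The list median was 0.19, and -0.07 without PBS replicate 3.

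Downstream of the receptors, 0 of 17 ERK feedback and immediate target genes were called (median 0.55, 4 unadjusted, all positive). Their median change was 0.09 over 17 genes in Lgr5med and -0.66 over the 13 genes tested in Lgr5neg cells. Among all genes 0.0708% were called, and 2.48% had an unadjusted p under 0.05 and a positive difference. The ERK list gene with the smallest p, Phlda1, encodes a pleckstrin homology domain protein induced by growth factors, and was named with its values in view. It stood at 13.5, 25.8 and 26.2 CPM in Lgr5med cells of NRG1 mice, against 16.5, 16.4 and 15.7 CPM in those of PBS mice, and at 2.46, 2.63 and 4.00 CPM in Lgr5neg cells of NRG1 mice, against 15.4, 7.56 and 5.10 CPM in those of PBS mice. Its difference of 1.92 (SE 0.38) had an adjusted p of 0.0899 by edgeR and 0.0034 by DESeq2. Spry2, a Sprouty protein that dampens growth factor receptors, had a difference of -0.31 (SE 0.33, adjusted p = 0.89).

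Crypt base stem cell markers had a median difference of 0.54 with 24 of 30 values positive. Over all genes the median was -0.05, with 6339 of 14134 values positive. Of the 30 markers 1 was called (Axin2). Their median change was 0.40 over 30 genes in Lgr5med cells, where 3 rose. In Lgr5neg cells it was 0.19 over the 22 genes tested, of which 1 fell. The rest were too low to be tested in Lgr5neg cells alone, so the Lgr5neg median covers fewer genes than the other medians. Of all genes 3.76% rose in Lgr5med cells, 0.176% fell in Lgr5neg cells and 0.0708% had a called difference. Lgr5 itself stood at 77.1, 41.9 and 44.5 CPM in Lgr5med cells of NRG1 mice, against 51.9, 15.7 and 19.1 CPM in those of PBS mice, and at 1.56, 1.45 and 1.28 CPM in Lgr5neg cells of NRG1 mice, against 1.05, 1.61 and 1.23 CPM in those of PBS mice. The Lgr5med groups overlapped, and the difference of 0.86 (SE 0.51, adjusted p = 0.78) was not called. Olfm4, an antiapoptotic glycoprotein of crypt base cells, had a difference of 0.60 (SE 0.43, adjusted p = 0.82). Of 19 Wnt targets 1 was called, again Axin2, with a list median of 0.29. Median changes were 0.12 over 18 genes in Lgr5med and -0.17 over 14 genes in Lgr5neg cells. The Wnt median was 0.02 without NRG1 replicate 1 and 0.58 without NRG1 replicate 2. The stem cell median was 0.17 in 15-week-old mice alone.

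The list of S phase and DNA replication genes had a median difference of -0.61, and 33 of its 37 members tested had a negative value, against 7795 of 14134 genes. None was called by edgeR, DESeq2 called 2 lower, and 13 had an unadjusted p under 0.05, all negative, against 5.02% of all genes. In Lgr5med cells 10 of the 37 fell, against 5.79% of all genes, with a median change of -0.40. In Lgr5neg cells 0 of 33 were called, where 0.328% of all genes were, with a median of 0.18. Ung, a uracil-DNA glycosylase, stood at 19.4, 16.2 and 12.3 CPM in Lgr5med cells of NRG1 mice, against 83.6, 69.8 and 59.7 CPM in those of PBS mice, and at 0.82, 1.64 and 1.13 CPM in Lgr5neg cells of NRG1 mice, against 0.45, 2.25 and 2.06 CPM in those of PBS mice. Its difference was -1.82 (SE 0.61, adjusted p = 0.49). E2f1, an activating member of the E2F family, was at 4.64, 4.36 and 4.62 CPM in Lgr5med cells of NRG1 mice, against 23.97, 13.6 and 17.9 CPM in those of PBS mice. In Lgr5neg cells E2f1 had 7, 12 and 6 counts in NRG1 mice, against 10, 2 and 5 counts in PBS mice. E2f1 was too low to be tested in Lgr5neg cells alone. Its difference was -2.53 (SE 0.52) with an adjusted p of 0.10 by edgeR and 0.024 by DESeq2. The standard error of the Ung change was 0.62 in Lgr5neg and 0.17 in Lgr5med cells.

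Of 30 G2/M genes 12 rose in Lgr5med cells, against 3.76% of all genes, with a median change of 0.42. In Lgr5neg cells none was called, against 0.328% of all genes, all 30 changes were positive and 9 had an unadjusted p under 0.05, with a median of 0.57. The median difference was -0.29, and it was -0.50 without NRG1 replicate 1 and -0.11 without NRG1 replicate 2. For the difference 0 were called by edgeR or DESeq2, and 2 had an unadjusted p under 0.05, both negative, against 5.02% of all genes. Cenpa, the centromeric histone, rose in Lgr5med cells by a log2 change of 0.92 (adjusted p = 0.0008) and had 0.95 (adjusted p = 0.32) in Lgr5neg cells, a difference of -0.04 (95% interval -0.66 to 0.57). Mki67, a marker of cycling cells, stood at 1111, 885 and 887 CPM in Lgr5med cells of NRG1 mice, against 801, 746 and 814 CPM in those of PBS mice, and at 30.1, 76.0 and 48.5 CPM in Lgr5neg cells of NRG1 mice, against 21.8, 43.8 and 41.7 CPM in those of PBS mice. Ribosome biogenesis genes had a median difference of -0.27 (-0.38 without NRG1 replicate 1 and -0.14 without PBS replicate 1). Of these 28 genes 8 fell in Lgr5med and 0 were called in Lgr5neg cells, against 5.79% and 0.328% of all genes.

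Among genes of the differentiated enterocyte, 2 of 28 xenobiotic metabolism genes were called, the Ces1f and Sult1b1 given above. The list had 10 members at an unadjusted p under 0.05 (8 negative, 2 positive), 4 called lower by DESeq2, and a median of -0.22, where 7.50% of all genes had such a p and DESeq2 called 0.446%. In Lgr5med cells 10 of 27 fell and 1 rose (5.79% and 3.76% of all genes), and in Lgr5neg cells 0 of 28 were called (0.328% of all genes). Brush border genes had a median difference of -0.30 with 17 of 21 negative and 0 called. Without NRG1 replicate 1 the xenobiotic median was -0.02 and the brush border median -0.05, and without NRG1 replicate 2 they were -0.54 and -0.52. Alpi, the brush border alkaline phosphatase, was at 18.6, 30.1 and 29.6 CPM in Lgr5med cells of NRG1 mice, against 52.1, 50.9 and 83.2 CPM in those of PBS mice, and at 1719, 907 and 1063 CPM in Lgr5neg cells of NRG1 mice, against 1368, 759 and 970.4 CPM in those of PBS mice. It fell in Lgr5med cells (log2 change -1.23, adjusted p = 0.017), and its difference of -1.47 (SE 0.46, adjusted p = 0.48) was not called. Fabp1, a fatty acid binding protein, fell in Lgr5med cells (-1.55, adjusted p = 8.9e-05) and had -0.63 (adjusted p = 0.50) in Lgr5neg cells, with a difference of -0.86 (SE 0.38, adjusted p = 0.65).

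Lists of metabolism and of class I antigen presentation had negative medians. Fatty acid oxidation genes had -0.24 (0 of 29 called, 6 unadjusted, all negative), glycolysis and hypoxia genes -0.24 (0 of 26 called, 8 unadjusted, 7 of them negative) and class I antigen presentation genes -0.28 (0 of 18 called, 5 unadjusted, all negative). Over all genes 5.02% had an unadjusted p under 0.05 and a negative difference. In Lgr5med cells 6 of 29, 5 of 25 and 6 of 17 of them fell, against 5.79% of all genes. Leaving out NRG1 replicate 1 gave medians of -0.15 for both glycolysis and class I, and leaving out NRG1 replicate 2 gave -0.37 for glycolysis and -0.51 for class I. Ldha, the glycolytic lactate dehydrogenase A, fell in Lgr5med cells (log2 change -0.85, adjusted p = 0.0024) and had -0.10 (adjusted p = 0.91) in Lgr5neg cells, a difference of -0.79 (SE 0.23, adjusted p = 0.33). Hk2 (hexokinase 2), the glycolysis gene with a positive difference at an unadjusted p under 0.05, fell in both populations, by 0.72 on the log2 scale in Lgr5med (adjusted p = 0.0080) and by 2.13 in Lgr5neg cells (adjusted p = 0.027). Its difference was 1.37 (SE 0.31), with an adjusted p of 0.16 by edgeR and 0.031 by DESeq2. Hk2 was named with its values in view. Psmb9, an immunoproteasome subunit, had a difference of -0.74 (SE 0.18, adjusted p = 0.20).

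Goblet markers had a median difference of 0.48 (0 of 18 called, 6 unadjusted, all positive), with median changes of -0.62 in Lgr5med and -1.09 in Lgr5neg cells. Over all genes 2.48% had an unadjusted p under 0.05 and a positive difference, and 0.0708% were called. Summed goblet markers were at 5079 to 11763 CPM in NRG1 and 6168 to 17043 CPM in PBS mice for Lgr5med cells, and at 2663 to 5067 and 7354 to 8251 CPM for Lgr5neg cells, where the groups did not overlap. Without PBS replicate 1 the median of the goblet differences was 0.14. Muc2, the main intestinal mucin, had a difference of 0.88 (SE 0.37, adjusted p = 0.62). Paneth markers had a median of 0.53 (0 of 17 called, 3 unadjusted, all positive) and enteroendocrine markers of 0.24 (0 of 25 called, none unadjusted). In Lgr5neg cells alone, 15 Paneth and 13 enteroendocrine markers had counts high enough to be tested. The Paneth median was 0.24 without NRG1 replicate 2, and the enteroendocrine median -0.04 without NRG1 replicate 3 and 0.76 without PBS replicate 3. Dissociation and immediate-early genes had 0.44 (0 of 21 called, 4 unadjusted, all positive), with summed levels in Lgr5neg cells of 636 to 873 CPM in NRG1 and 1011 to 1365 CPM in PBS mice, and a median difference of 0.15 without NRG1 replicate 1. The part of these marker levels in the differences of single genes was not tested.

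A few genes lay just past the threshold and were chosen after their values were seen. Gpx1, a glutathione peroxidase that removes peroxides, stood at 272, 214 and 165 CPM in Lgr5med cells of NRG1 mice, against 172, 192 and 184 CPM in those of PBS mice. In Lgr5neg cells it stood at 544, 463 and 361 CPM in NRG1 mice, against 209, 203 and 180.3 CPM in PBS mice. The groups overlapped in Lgr5med cells and were apart in Lgr5neg cells. Gpx1 rose in Lgr5neg cells (log2 change 1.22, SE 0.19, adjusted p = 0.027), and its difference of -0.97 (SE 0.17) had an adjusted p of 0.055 by edgeR and 0.0002 by DESeq2. Abca1, a cholesterol exporter, was at 4.31, 3.13 and 3.00 CPM in Lgr5med cells of NRG1 mice, against 3.87, 2.20 and 2.77 CPM in those of PBS mice. Its Lgr5neg values were 21.8, 29.7 and 29.6 CPM in NRG1 mice, against 69.7, 48.8 and 57.5 CPM in PBS mice. Abca1 fell in Lgr5neg cells (log2 change -1.11, adjusted p = 0.027), with a difference of 1.37 (SE 0.27) and an adjusted p of 0.0899 by edgeR and 0.010 by DESeq2. Coro2a, a coronin that binds actin, had a difference of -1.22 (adjusted p = 0.055), and the gasdermins Gsdmc2 and Gsdmc4, closely related copies of 1 family, had -1.67 (adjusted p = 0.055) and -1.32 (adjusted p = 0.057). Rrm2, the small subunit of ribonucleotide reductase, fell in Lgr5med cells (log2 change -0.57, adjusted p = 0.012) and had 0.86 (adjusted p = 0.49) in Lgr5neg cells. Its difference of -1.45 (SE 0.27) had an adjusted p of 0.081 by edgeR and 0.019 by DESeq2.

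**Figure D5:**
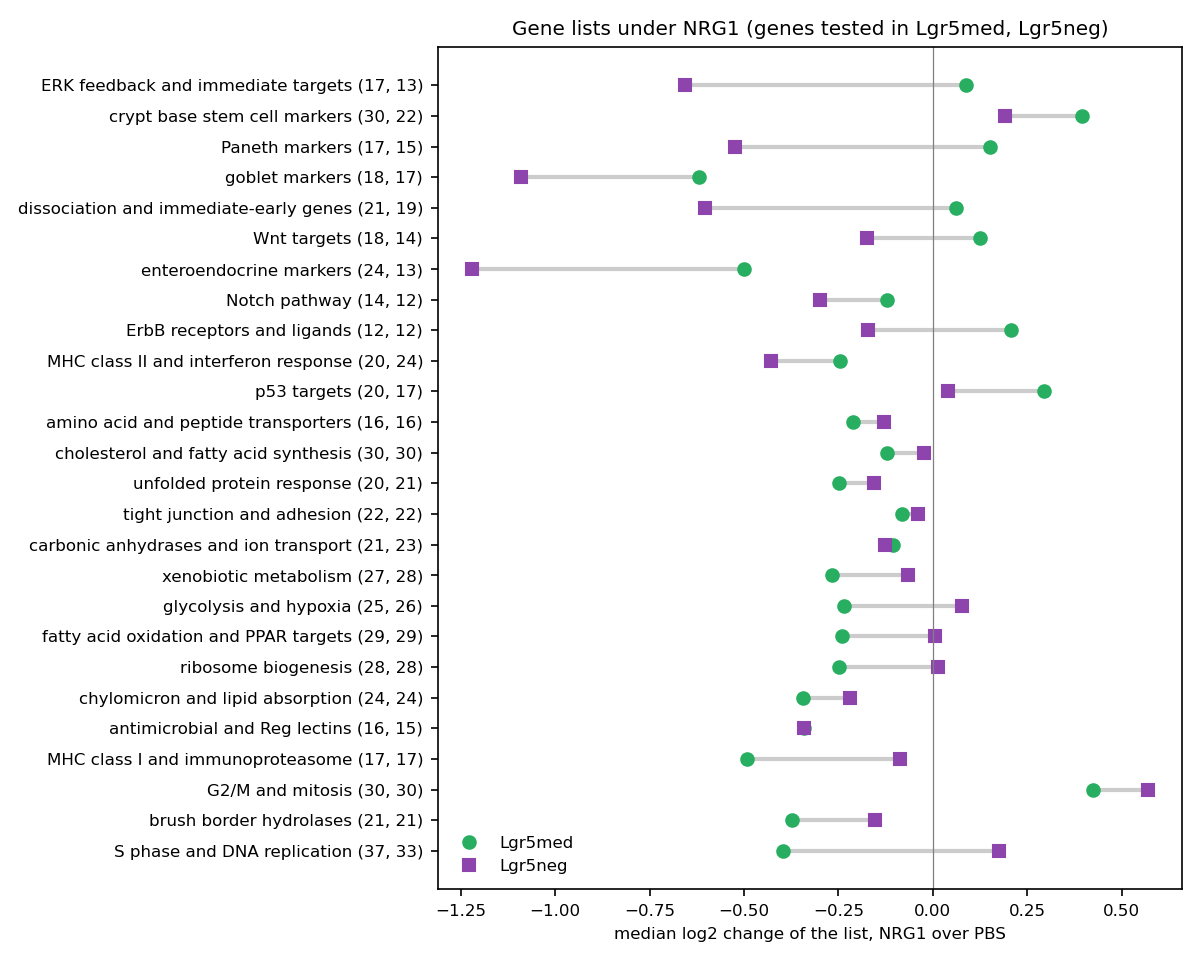
Median log2 change under NRG1 in Lgr5med (circles) and Lgr5neg cells (squares) for the 26 gene lists with at least 10 genes tested, the numbers tested in each population standing in brackets. The S phase list lies at -0.40 in Lgr5med and 0.18 in Lgr5neg cells, and the goblet list at -0.62 and -1.09.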

How the data were processed

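RNA of sorted small-intestinal crypt cells was sequenced, and the authors deposited a table of raw counts per gene symbol, which was used as deposited. Reads were assigned with STAR, featureCounts and GRCm38, per the submitters' processing notes; versions, annotation release and strand setting are not given in the sources used here. Per the labels' protocols, 15 ng of RNA went into each library and single reads of 76 nt were sequenced. Of 43280 symbols, 16628 were at 0 in all 24 libraries.

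Counts were filtered with filterByExpr (minimum count 10, minimum total 15), scaled by TMM and tested with edgeR 4.0.16's robust quasi-likelihood test (R 4.3.3, limma 3.58.1), with Benjamini-Hochberg adjustment over all genes tested. The model had a term for each mouse and left 4 residual degrees of freedom. The response in each population was fitted on its own 6 libraries, without a block. DESeq2 1.42.0 was an alternative, beside another scaling, other filters, blocks, ages and each mouse left out. Levels are TMM-scaled CPM, and log2 CPM used a prior count of 2. The scripts were tested on simulated data. Intervals are at 95%.

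The mouse of each library was read from the shared start of its description label. Deviations of Lgr5med and Lgr5neg libraries from their group means correlated at 0.16, 0.05 and 0.14 (NRG1) and 0.08, 0.10 and 0.07 (PBS) within a mouse. NRG1 and PBS libraries of the same replicate number correlated at 0.26, 0.11 and 0.19 in Lgr5med and 0.30, 0.27 and 0.20 in Lgr5neg cells, so the counts with that block are given beside the counts of each population.

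The comparison, the 33 gene lists and the genes named were chosen with earlier results of these data known. Named were, among called genes, the 14 largest differences in each direction with a mean log2 CPM of at least 2, a mean of at least 1 CPM in each population and no overlap between treatments within mice, members of lists with at least 3 calls, and a list of genes named whatever their values, of which 1 is not reported here. Gpx1, Coro2a, Gsdmc2, Gsdmc4, Rrm2, Phlda1, Hk2, Abca1, Cck and Smim24 were named after their values were seen. Coordinates are those of GENCODE vM21 (GRCm38). Only the mouse labels, the replicate numbers in the titles and the ages mark the libraries as separate biological samples.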

Additional observations from a re-analysis of the deposited data

Results flagged for a closer look

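The responses of Lgr5med and Lgr5neg cells differed, by the test of the difference itself, for 10 genes. The log2 differences were 1.76 for Sema7a, 1.65 for Axin2 and 1.53 for Clic4, whose change in Lgr5neg cells lay below that in Lgr5med cells. They were -2.15 for Car4, -1.77 for Ces1f, -1.42 for Apol10a, -1.39 for E2f2, -1.35 for Fam101b, -1.23 for Mall and -1.23 for Sult1b1, whose change in Lgr5med cells lay below that in Lgr5neg cells. Against Lgr5low cells the responses differed for Cck (-1.13), and against Lgr5high cells for Smim24 (-1.12). Groups of 3 libraries are too small for a check of single outlying samples.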

How the results depend on the processing

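All 10 differences kept their direction under the 15 alternatives, which used the same mice and so add no separate support. All 10 calls were kept with RLE size factors, a mean of 1 CPM in each population and no mitochondrial ribosomal RNA. They were also kept with no filter on low counts, DESeq2 and the replicate block. The count was 5 with no mouse block, 367 with the replicate block, 146 with no filter on low counts, 63 with DESeq2 and 0 in 15-week-old mice alone, and 1 to 24 without single mice. For this difference NRG1 and PBS mice of the same replicate number correlated weakly (0.17, 0.16 and 0.09). Mice of different numbers correlated at -0.13 to -0.02, so each mouse correlated best with its own number. These were deviations from a group mean, which cancel within the group. Positive values with the own number therefore bring negative ones with the others. Replicate 3 was also the younger mouse of each treatment, and what the replicate numbers share was not tested. Fitting all 24 libraries ended the calls of Car4 (adjusted p = 0.13), Ces1f (0.41), Apol10a (0.46), Mall (0.32) and Sult1b1 (0.063). Leaving out the mouse block ended those of Ces1f (0.26), E2f2 (0.21), Mall (0.11), Sult1b1 (0.16) and Sema7a (0.36).

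For Lgr5med minus Lgr5low the count was 0 with no mouse block, 80 with the replicate block, 45 with no filter, 0 at 1 CPM, 19 with DESeq2 and 0 with all 24 libraries, and 0 to 8 without single mice. For Lgr5med minus Lgr5high it was 89 with the replicate block, 169 with no filter, 77 with DESeq2, 0 with all 24 libraries and 2 in 15-week-old mice, and 0 to 24 without single mice. The Lgr5med response gave 2333 calls with the replicate block, 692 with 12 libraries in 1 model and 425 in 15-week-old mice, and 422 to 1118 without single mice. The Lgr5neg response gave 839 with the replicate block, 272 with no filter, 197 with DESeq2, 141 with 12 libraries in 1 model and 0 in 15-week-old mice, and 0 to 90 without single mice.

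Differences that changed sign belonged to uncalled genes. Erbb3 was at 0.00021 with no mouse block, 0.015 with RLE and with DESeq2, 0.011 at 1 CPM and 0.0085 with all 24 libraries. Ptprc was at -0.31 with no mouse block, and Ptprc at -1.51 and Etv5 at 0.18 in 15-week-old mice. Without single mice the ranges were -0.43 to 0.26 for Myc, -0.69 to 0.18 for Ccnd1, -0.65 to 0.17 for Mki67, -0.26 to 0.24 for Cenpa, -0.091 to 0.12 for Erbb3, -0.79 to 0.091 for Etv5, -1.01 to 0.62 for Apoa4, -0.19 to 0.59 for Lyz1, -0.046 to 1.15 for Chga, -1.37 to 0.033 for Dclk1, -1.79 to 0.49 for Gzmb, -1.51 to 1.54 for Ptprc and -1.91 to 0.42 for Pecam1. In Lgr5neg cells the response of Ces1f ranged from -0.24 to 0.29 and that of Sult1b1 from -0.20 to 0.11. The cause of these changes was not tested. With 3 mice a group the median standard error of a difference was 0.32 on the log2 scale over all genes tested.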

Other observations

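Of 20 p53 targets, 4 rose and 1 fell in Lgr5med cells, and none of 17 was called in Lgr5neg cells. Of all genes 3.76% rose and 5.79% fell in Lgr5med cells and 0.328% were called in Lgr5neg cells. The median difference of responses was 0.06, and -0.0085 without PBS replicate 1. Trp53inp1, a stress protein induced by p53, rose in Lgr5med cells (log2 change 1.70) and had 0.99 (adjusted p = 0.12) in Lgr5neg cells, with a difference of 0.67 (adjusted p = 0.49, edgeR). Of 8 mitochondrially encoded genes tested, 3 rose in Lgr5med and 0 were called in Lgr5neg cells, and 7 of the 8 differences were positive (median 0.20, none called; -0.03 without NRG1 replicate 2). Cholesterol and fatty acid synthesis genes had a median difference of -0.06, with 0 of 30 called. At an unadjusted p under 0.05 there were 6, 2 positive and 4 negative, against 2.48% and 5.02% of all genes. Genes of class II antigen presentation and the interferon response had 0.12, with 0 of 26 called, and H2-Ab1, a class II chain, had 0.95 (adjusted p = 0.48).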
